A study of Homo sapiens with 2 samples.

Results

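Of the 21115 genes in the deposited table, 5 were taken by their symbols: TXNIP, ARRDC1, ARRDC2, ARRDC3 and ARRDC4, the alpha-arrestins described here. Each had 1 row. The study measured mRNA in HCT116, an established human colorectal carcinoma line, in a library from cells given the solvent DMSO for 8 h and a library from cells given 1 µM CB-5083 for the same time, both grown in 10% FBS in McCoy's 5a medium. CB-5083 blocks p97 (VCP), an ATPase that pulls ubiquitinated proteins out of complexes and membranes so that they can be degraded. Each group was 1 library, so the differences below have no replicate check, no test and no p-value.

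Alpha-arrestins share the paired arrestin folds of the beta-arrestins that bind activated receptors. Most carry PPxY motifs near the C terminus, which bind the WW domains of NEDD4-family ubiquitin ligases, so that the arrestin brings a ligase to a membrane protein and the cargo is ubiquitinated and internalised. TXNIP is also an inhibitor of thioredoxin and lowers glucose uptake, and its transcription is driven by the glucose-sensing factor MondoA with its partner MLX. ARRDC4, the member closest to TXNIP in function, is a MondoA target too. ARRDC1 recruits the ESCRT protein TSG101 and buds small vesicles from the plasma membrane, and ARRDC3 acts on integrin beta 4. The role of ARRDC2 is less well described.

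The promoters of TXNIP and ARRDC4 are shown because both genes are described targets of one glucose-sensing factor, and ARRDC4 had the highest ratio among the 5 genes while TXNIP had no counts. Each run is the 250 bases before a RefSeq start in GRCh38.p14, read 5′ to 3′ on the gene's strand, with matches to the motifs named below in capitals. The TXNIP run lies on the minus strand at chr1:145996580-145996829 and the ARRDC4 run on the plus strand at chr15:97960453-97960702.
TXNIP: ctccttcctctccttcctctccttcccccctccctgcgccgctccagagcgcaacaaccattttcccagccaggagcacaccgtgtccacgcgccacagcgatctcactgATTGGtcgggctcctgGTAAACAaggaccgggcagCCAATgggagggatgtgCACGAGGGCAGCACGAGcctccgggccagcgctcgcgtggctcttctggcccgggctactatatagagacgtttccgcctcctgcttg
ARRDC4: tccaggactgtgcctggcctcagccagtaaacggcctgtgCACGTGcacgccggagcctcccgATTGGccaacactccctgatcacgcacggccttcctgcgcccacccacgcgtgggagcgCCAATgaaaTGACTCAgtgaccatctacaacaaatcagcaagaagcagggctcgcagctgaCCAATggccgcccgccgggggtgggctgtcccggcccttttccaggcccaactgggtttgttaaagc

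The TXNIP run held CACGNG repeated after a gap of 5 bases, the arrangement of a carbohydrate response element, from 88 to 72 bases before the start, printed as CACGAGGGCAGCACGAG. Only 20 of 35116 RefSeq promoter windows (0.057%), each reaching from 250 bases before to 50 after a start, held this arrangement on either strand. The ARRDC4 window had no such pair and held 1 E-box, CACGTG, 210 to 205 bases before the start, a motif found in 7.26% of all windows. The motif GTAAACA, of the FOXO type, lay 124 to 118 bases before the TXNIP start and, on the other strand, 29 to 23 bases before 1 of the 2 starts of ARRDC3 (3.42% of all windows). CCAAT, on either strand, occurred 3 times in the ARRDC4 window and 2 times in this TXNIP window, and 34.6% of all windows held it. ARRDC1, ARRDC2 and ARRDC3 had it too, so that 5 of the 8 windows of the 5 genes held it. In the ARRDC4 run TGACTCA, of the AP-1 type, stood 119 to 113 bases before the start (4.95% of all windows). That motif was added after the sequences had been read. The other motifs searched, on both strands, were TGATGNAA of the C/EBP-ATF type, TGACGTGG of the XBP1 and ATF6 type, the ER stress element (CCAAT and CCACG spaced by 9 bases) and the glucocorticoid response element (AGAACA and TGTTCT spaced by 3 bases). None of these was in any of the 8 windows of the 5 genes, and their shares of all windows were 3.62%, 0.729%, 0.077% and 0.0028%. CCAAT is also the first part of the ER stress element, so those motifs can overlap. The matches describe letters in these windows and not binding.

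Levels are CPM, a gene's estimated count scaled to the size of its library after TMM scaling, which corrects for differences in library composition. Estimated counts summed to 29273738 in the DMSO library and 31997710 in the other. Intervals in parentheses are 95% exact intervals that cover counting error only, and not the choice of scaling. Of 9 epithelial and colon markers 6 were measured, with sums of 1121 and 1670 CPM, and CDX1 was at 0. None of 3 leukocyte and 3 endothelial markers and 1 of 4 fibroblast markers was measured, where measured means a mean of at least 1 CPM over both libraries. Their sums were at most 3.52 CPM, and PTPRC, CD3E, CDH5, DCN and COL1A2 were at 0.

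TXNIP, listed on chromosome 1 from 145438462 to 145442628 in hg19, had a value of 0 in both libraries. A limit of 3 counts for a value of 0 corresponds to 0.091 (DMSO) and 0.106 CPM (CB-5083), and the 95% exact intervals used for the other genes reach 0.112 and 0.130 CPM. In the authors' deposited table its log2 ratio is spreadsheet error text. TXNIP was 1 of 3110 genes at 0 in both libraries (14.7% of all), whereas none of 76 cytosolic ribosomal protein genes was. The neighbours of TXNIP had counts: POLR3GL, a subunit of RNA polymerase III that lies 13.6 kb from it, was at 18.8 CPM in DMSO and 16.2 CPM in CB-5083. Whether the estimate for TXNIP failed was not tested, and no fold is given.

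ARRDC4 was the member that differed most between the libraries. It was at 15.0 CPM in DMSO (13.7 to 16.4) and 117 CPM in CB-5083 (113 to 121), from 495 and 3332 estimated counts, a 7.80-fold higher level (7.10 to 8.60). Its log2 ratio, taken throughout as the log2 of the quotient of both CPM values after adding 1 to each, was 2.88, and it ranked 41st from the top among 9543 genes with at least 5 CPM in a library. The row spans chromosome 15 from 98462784 to 98517068 in hg19, and its latest listed start is 98503933. In a bulk library more RNA per cell and more cells with the RNA cannot be told apart.

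ARRDC3 was at 38.9 CPM in DMSO (36.8 to 41.1) and 71.2 CPM in CB-5083 (68.1 to 74.4), from 1282 and 2024 estimated counts. The 2 counting intervals did not overlap, and the fold was 1.83 (1.71 to 1.96), short of 2. Its log2 ratio of 0.86 ranked 911th of 9543. The gene lies on chromosome 5 from 90664541 to 90679149. An overlapping locus, LOC100129716, was at 1.54 and 1.47 CPM. The library kit keeps strand, but no source used here says whether the counting did.

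With TMM scaling, ARRDC2 and ARRDC1 were low and close to level. ARRDC2, on chromosome 19 from 18111944 to 18124911, was at 6.16 CPM in DMSO (5.34 to 7.07) and 5.31 CPM in CB-5083 (4.50 to 6.23), 0.862-fold (0.694 to 1.07). ARRDC1, on chromosome 9 from 140500096 to 140510657, was at 2.40 CPM (1.90 to 2.99) and 2.32 CPM (1.796 to 2.95), 0.969-fold (0.688 to 1.36). For both genes the intervals of the 2 libraries overlapped and that of the fold included 1. For ARRDC1, with 79 and 66 counts, it ran from 1.45-fold lower to 1.36-fold higher. With library totals the log2 ratios were -0.47 for ARRDC2 and -0.27 for ARRDC1, so how level these genes were depends on the scaling.

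**Figure D1:**
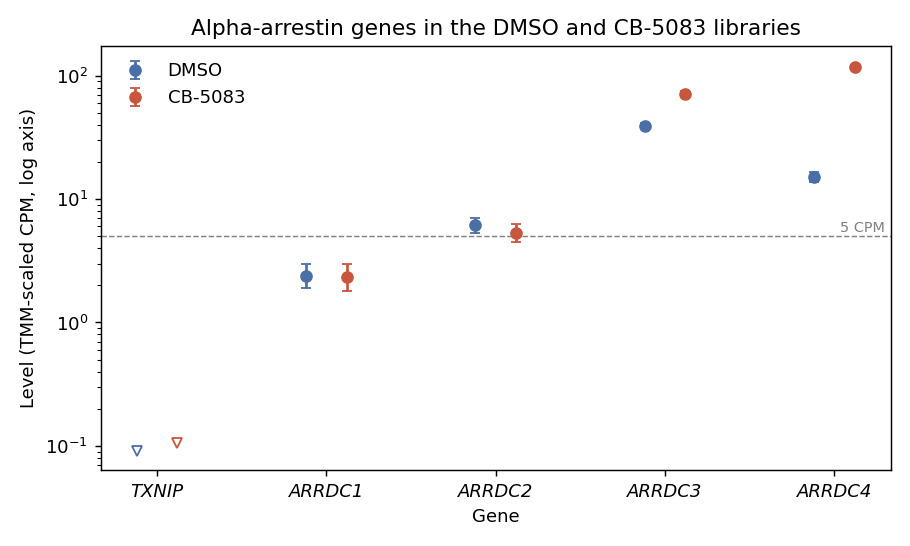
Level of each alpha-arrestin gene in TMM-scaled CPM on a log axis, with DMSO in blue and CB-5083 in red. Points are single libraries with 95% exact Poisson counting intervals, which for ARRDC3 and ARRDC4 are about as small as the points. Open triangles mark the level of 3 counts for TXNIP (0.091 and 0.106 CPM), which lies below the exact upper limits for a value of 0 (0.112 and 0.130 CPM). ARRDC4 goes from 15.0 to 117 CPM, and the points of ARRDC1 and of ARRDC2 overlap within their intervals.

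A gene was called higher or lower where its log2 ratio, after adding 1 CPM to each level, was at least 1 in size (2-fold) and a library reached 5 CPM, so that a quotient of levels just past 2 can miss the call. By this rule 1 of the 5 genes was higher with CB-5083, ARRDC4, and none was lower. Of all 9543 genes that reached 5 CPM, 7.22% were called higher and 4.91% lower. Those shares were 3.86% and 10.3% with library totals, and 6.11% each way with upper quartile scaling. Of the 5 genes, 3 reached 5 CPM (ARRDC2, ARRDC3 and ARRDC4), ARRDC1 lay under it and TXNIP was at 0. The median log2 ratio of the 4 genes measured was 0.41, against 0.04 over all 11964 measured genes. The 4 values were 2.88 (ARRDC4), 0.86 (ARRDC3), -0.03 (ARRDC1) and -0.18 (ARRDC2), so this median lies in a gap and describes no single gene. The genes together were at 62.5 and 196 CPM. With library totals in place of TMM, log2 ratios over all genes dropped by 0.31 at the median, and ARRDC4 was still past 2-fold, at 2.55.

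**Figure D2:**
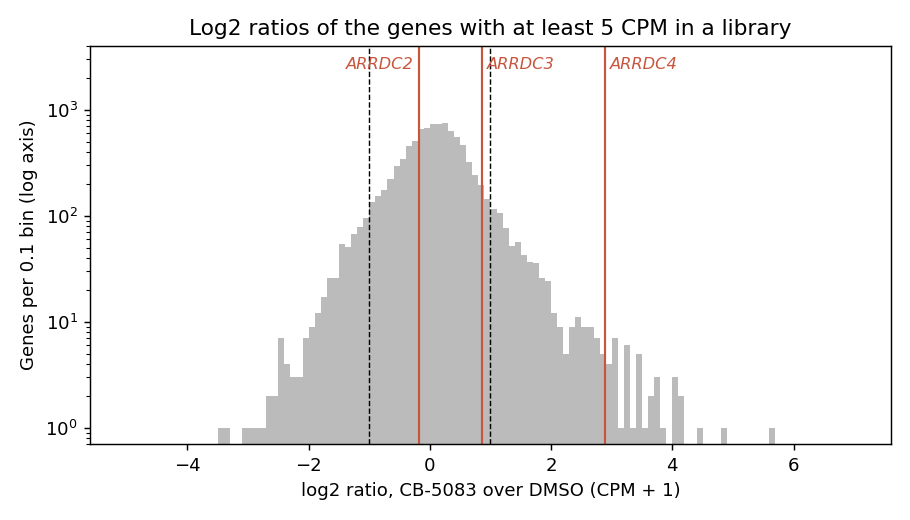
Histogram of the log2 ratio of CB-5083 over DMSO for the 9543 genes with at least 5 CPM in a library (counts of genes per bin on a log axis), with dashed lines at 2-fold. Red lines mark ARRDC2 at -0.18, inside the main body, ARRDC3 at 0.86, just short of the threshold, and ARRDC4 at 2.88, in the upper tail.

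Ratios between the genes of one library do not depend on the scaling between libraries. Of the estimated counts of the 5 genes together, ARRDC3 held 62.3% with DMSO (60.1 to 64.4) and 36.3% with CB-5083 (35.1 to 37.6). ARRDC4 went the other way, from 24.04% (22.2 to 25.9) to 59.8% (58.5 to 61.1). Among the ARRDC genes, the leading one thus differed between the libraries. TXNIP enters these shares with its value of 0, and whether its estimate failed was not tested. ARRDC2 held 9.86% (8.61 to 11.2) and 2.71% (2.30 to 3.17), and ARRDC1 3.84% (3.05 to 4.76) and 1.18% (0.917 to 1.504). The smaller shares of these genes came with a family total of 2059 counts with DMSO and 5573 with CB-5083, so a smaller share is not a lower level.

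**Figure D3:**
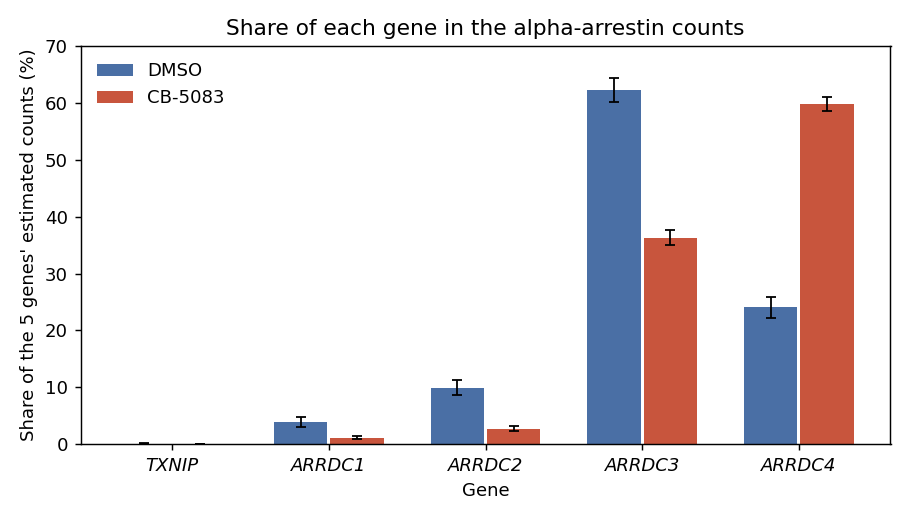
Share of each gene in the summed estimated counts of the 5 genes, in percent, for DMSO (blue, 2059 counts) and CB-5083 (red, 5573 counts), with 95% exact binomial intervals as black bars. ARRDC3 is the tallest bar with DMSO at 62.3% and ARRDC4 with CB-5083 at 59.8%, and TXNIP has no counts in either. The shares take the TXNIP value of 0 as given, and whether its estimate failed was not tested.

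The 6 pairs of detected genes were compared by the ratio of their folds, with 95% exact conditional intervals. The fold of ARRDC4 was 4.26 times that of ARRDC3 (3.79 to 4.81), 9.04 times that of ARRDC2 (7.14 to 11.5) and 8.05 times that of ARRDC1 (5.65 to 11.5). That of ARRDC3 was 2.12 times that of ARRDC2 (1.69 to 2.67) and 1.89 times that of ARRDC1 (1.33 to 2.68). ARRDC2 and ARRDC1 could not be told apart, at 0.891 (0.593 to 1.34). All intervals but the last excluded 1 by counting error.

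Per length, in CPM per kb of the longest coding transcript in GENCODE release 29, the order of the levels with DMSO was ARRDC3 at 9.29, ARRDC4 at 3.69, ARRDC2 at 2.44 and ARRDC1 at 1.51. With CB-5083 it was ARRDC4 at 28.8, ARRDC3 at 17.0, ARRDC2 at 2.10 and ARRDC1 at 1.46. The places of the leading ARRDC genes were thus exchanged. The level of ARRDC4 was 0.397 times that of ARRDC3 with DMSO and 1.69 times with CB-5083. The transcripts these cells used, and so the lengths, were not measured.

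The genes most like each member in level, by distance in the plane of the log2 levels of both libraries, are given for the 3 genes that reached 5 CPM. Since only 2 libraries enter, likeness means similar levels in both. Nearest to ARRDC4 were FAM129A, at 13.8 and 112 CPM (distance 0.134), and MAP1B, at 16.8 and 129 CPM (distance 0.202). ARRDC3 was nearest to RRBP1, at 39.3 and 69.9 CPM, and DYM, at 38.9 and 72.9 CPM. SUV39H1, at 6.10 and 5.38 CPM, and ZNF254, at 6.25 and 5.21 CPM, were nearest to ARRDC2.

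The nearest measured genes on the chromosome did not share the difference of ARRDC4. NR2F2, an orphan nuclear receptor that ends 1579 kb before it, was at 122 CPM in DMSO and 53.1 CPM in CB-5083 (0.435-fold, 0.409 to 0.461). IGF1R, the receptor of insulin-like growth factor, starts 676 kb after it and was at 14.7 and 3.80 CPM (0.258-fold, 0.208 to 0.319). Both were called lower, as were 4.91% of the 9543 genes that reached 5 CPM. Whether their levels are linked to that of ARRDC4 was not tested. Around ARRDC3, GPR98 was at 4.79 and 3.31 CPM and FLJ42709 at 15.7 and 21.7 CPM. ARRDC1 stands between ZMYND19, at 11.4 and 12.0 CPM, and EHMT1, a histone methyltransferase at 21.3 and 20.2 CPM. On the sides of ARRDC2, CCDC124 was at 1.34 CPM in both libraries and MAST3 at 4.16 and 1.69 CPM. NBPF10, before TXNIP and one of many near-identical copies, was at 9.71 and 11.3 CPM.

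Other genes of the arrestin fold were put through the same call as ARRDC4. Of 6 measured, none was higher, 1 was lower and 5 were neither, with a median log2 ratio of -0.11. Over all measured genes 5.76% were called higher and 3.92% lower. For a list of 6 genes the first share also gives no higher call, so the count sets no contrast with ARRDC4. The counts of the lists below are to be read against these shares too. ARRB1, which encodes beta-arrestin 1, was at 11.4 and 4.61 CPM (2.48-fold lower, 2.03 to 3.05), but short of the threshold with a pseudocount of 5 CPM. ARRB2 was at 22.5 and 20.1 CPM. VPS26A, a retromer subunit and the most expressed of them, was at 153 and 222 CPM. The arrestins of photoreceptors, SAG and ARR3, were at 0, and ARRDC5 was not analysed here.

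Of the described activators of TXNIP and ARRDC4, MondoA and MLX had RNA levels that differed little between the libraries. MLXIP, which encodes MondoA, was at 16.1 CPM in DMSO and 15.2 CPM in CB-5083 (0.943-fold, 0.829 to 1.07), and MLX at 53.9 and 56.2 CPM. MLXIPL, the gene of the related factor ChREBP, was at 3.09 and 1.82 CPM (0.590-fold, 0.415 to 0.833). Of 5 measured genes of MLX and its partners, 1 was higher and 4 neither (median 0.06, or -0.28 by library totals and -0.029 by upper quartile scaling). The higher one was MXD1, whose product dimerises with MLX and MAX and represses E-box genes, at 3.40 against 46.8 CPM (13.7-fold, 11.3 to 16.8).

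Of 6 measured other targets described for ChREBP and MondoA, none was called higher or lower (median -0.15), a count that the shares over all measured genes also give. SCD, a fatty acid desaturase, was at 1641 and 1636 CPM, and ACACA, acetyl-CoA carboxylase, at 164 and 199 CPM (1.22-fold, 1.17 to 1.26). The log2 ratio of ACACA, 0.28, was within the median drop of 0.31 with library totals, so its direction depended on the scaling. KLF10, a transcription factor gene, was at 120 and 59.8 CPM, a log2 ratio of -0.995 that is just short of the threshold and passed it with library totals, upper quartile scaling or a pseudocount of 0.1 CPM. PKLR was at 0.

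In the thioredoxin system, which TXNIP inhibits, 2 of 14 measured genes were higher, none lower and 12 neither (median -0.05). TXN, thioredoxin itself, was at 411 and 458 CPM (1.12-fold, 1.09 to 1.14). Its log2 ratio, 0.16, was within the median drop of 0.31 with library totals, so its direction depended on the scaling. TXNRD1, thioredoxin reductase, was at 629 and 1698 CPM (2.70-fold), and SRXN1, sulfiredoxin, at 126 and 295 CPM (2.34-fold, 2.26 to 2.43), and SRXN1 was under the threshold with library totals. NXN, a thioredoxin relative, had the lowest ratio, at 31.9 and 19.6 CPM.

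Glucose entry, the step that TXNIP and ARRDC4 lower at the membrane, had 1 of 6 measured genes higher, 1 lower and 4 neither (median 0.26, or -0.075 by library totals). SLC2A1, which encodes the glucose transporter GLUT1, a described cargo of TXNIP, was at 79.9 and 101 CPM (1.26-fold, 1.198 to 1.33). Its log2 ratio of 0.33 was close to the median drop of 0.31 with library totals. HK2, a hexokinase whose product makes the glucose 6-phosphate sensed by MondoA, was at 103 and 244 CPM (2.36-fold, under 2-fold with library totals), and SLC2A13, a myo-inositol transporter of the same family, at 22.9 and 10.1 CPM (2.26-fold lower, 1.97 to 2.60, and short of the threshold with a pseudocount of 5 CPM). AMPK, the energy-sensing kinase that phosphorylates TXNIP, had 1 of 7 measured genes higher and 6 neither (median 0.18, or -0.16 by library totals). The beta subunit gene PRKAB2 was at 41.2 and 93.6 CPM (2.27-fold, 2.13 to 2.43) and was under the threshold with library totals. PRKAA1, a catalytic subunit and the most expressed, was at 115 and 125 CPM, and STK11, the upstream kinase LKB1, at 10.2 and 7.28 CPM.

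The ubiquitin ligases that bind the PPxY motifs of these arrestins were mostly within 2-fold. Of 10 measured NEDD4-family ligases and NDFIP adaptors, 2 were higher and 8 neither (median 0.29, or -0.053 by library totals). NEDD4L was at 54.4 and 112 CPM (2.06-fold, 1.95 to 2.19) and ITCH, a described ligase for TXNIP, at 152 and 311 CPM (2.04-fold, 1.97 to 2.12). NEDD4 itself, at 35.8 and 71.9 CPM, had a log2 ratio of 0.99. These calls sit at the threshold, and with library totals or upper quartile scaling none of the list was called. SMURF2, the most expressed, was at 275 and 444 CPM, and WWP1, with the lowest ratio, at 111 and 103 CPM.

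The ESCRT genes, whose products take up ubiquitinated cargo and which ARRDC1 draws on for budding, gave no call in either direction among 14 measured, with a median of 0.46. VPS37B, an ESCRT-I subunit, was at 25.2 and 44.7 CPM (1.78-fold, 1.63 to 1.94), and TSG101, the direct partner of ARRDC1, at 70.3 and 102 CPM (1.45-fold, 1.38 to 1.54). PDCD6IP, which encodes ALIX and was the most expressed, was at 272 and 322 CPM. FAM125B was lowest, at 4.01 and 2.99 CPM.

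Described cargo and partners of the ARRDC proteins gave no higher, 1 lower and 4 neither of 5 measured genes (median -0.33). F2R, the thrombin receptor PAR1, which ARRDC3 sorts, was at 31.5 and 11.8 CPM (2.66-fold lower, 2.35 to 3.01). ITGB4, integrin beta 4, was at 10.7 and 8.34 CPM. SLC11A2, the iron transporter DMT1, was the most expressed, at 61.2 and 85.8 CPM.

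The NLRP3 inflammasome, a described partner of TXNIP, was largely not detected: NLRP3, PYCARD, CASP1 and IL1B were at 0 in both libraries. Of the 3 measured members none was called higher or lower (median 0.69). IL18, a cytokine gene, was at 111 and 223 CPM, a log2 ratio of 0.995 that passed the threshold with median-of-ratios scaling or a pseudocount of 0.1 CPM, and NEK7, a kinase that binds NLRP3, at 74.6 and 121 CPM. GSDMD was at 1.73 and 1.23 CPM.

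Glucocorticoid hormones and FOXO factors are described inducers of alpha-arrestin genes in other cells, and their other targets were listed for that reason. The lists were chosen with earlier results of these data known, so the counts below are not an independent check. Of 9 measured genes of the glucocorticoid list, 3 were higher and 6 neither (median 0.65). These were DUSP1, a MAP kinase phosphatase (5.43 to 85.8 CPM, 15.8-fold), ERRFI1, an inhibitor of the EGF receptor (551 to 3434 CPM, 6.24-fold, 6.14 to 6.34), and TSC22D3, the leucine zipper protein GILZ (3.94 to 16.5 CPM, 4.19-fold, 3.45 to 5.13). FKBP5 was at 153 and 106 CPM and SGK1, with the lowest ratio, at 4.01 and 2.25 CPM. The FOXO list gave 2 higher and 8 neither of 10 measured (median 0.52). CCNG2, an unconventional cyclin, was at 17.4 and 134 CPM (7.70-fold, 7.05 to 8.42) and IRS2, an insulin receptor substrate, at 12.7 and 43.8 CPM (3.44-fold, 3.08 to 3.85). FOXO3, the most expressed of the list by the mean of both libraries though below CCNG2 in the CB-5083 library, was at 63.6 and 113 CPM (1.78-fold, 1.68 to 1.88) and FOXO1, with the lowest ratio, at 22.7 and 14.3 CPM. TSC22D3 and IRS2 are named, after their values were seen, as the remaining genes of these lists called higher.

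**Figure D4:**
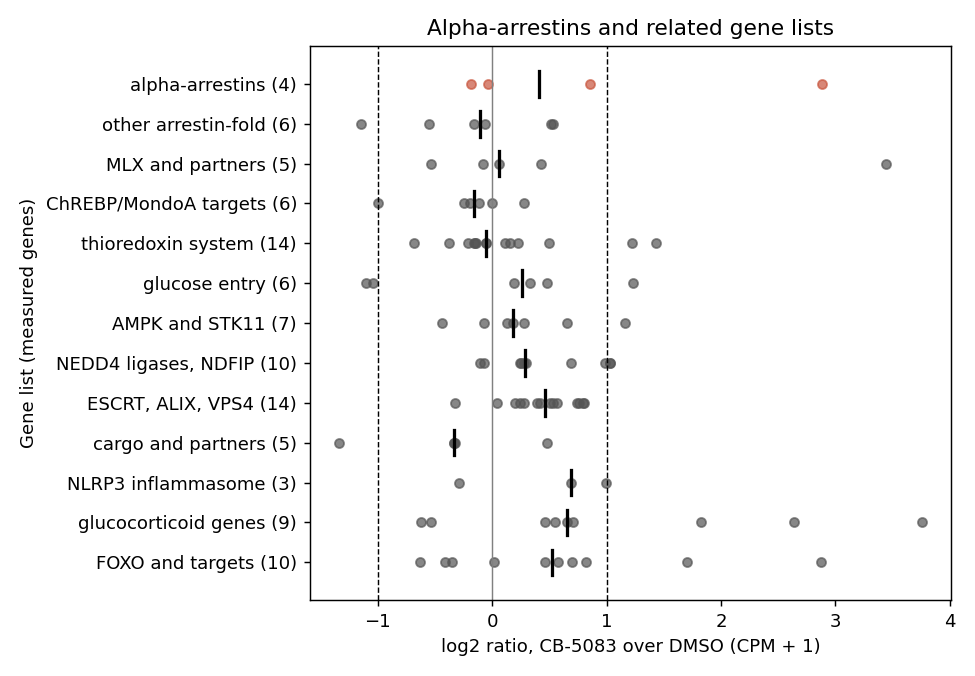
Log2 ratio of CB-5083 over DMSO for every measured gene of each list, with the number measured in parentheses, black bars at the medians and dashed lines at 2-fold. ARRDC4 at 2.88 stands apart from the other alpha-arrestins (red), while the 14 ESCRT genes lie inside the dashed lines, 1 glucose entry gene past the line (SLC2A12) is under 5 CPM and not called, and single genes such as MXD1 at 3.44 and DUSP1 at 3.75 lead their lists.

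The call of ARRDC4 held under each setting tried. Its log2 ratio ran from 2.55 with library totals to 2.96 with a pseudocount of 0.1 CPM, and was 2.87 in the authors' deposited table. ARRDC3 ran from 0.52 with library totals to 0.87 and passed no setting of the 2-fold threshold. The ratio of ARRDC2 stayed between -0.47 and -0.11 and that of ARRDC1 between -0.27 and -0.01.

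**Figure D5:**
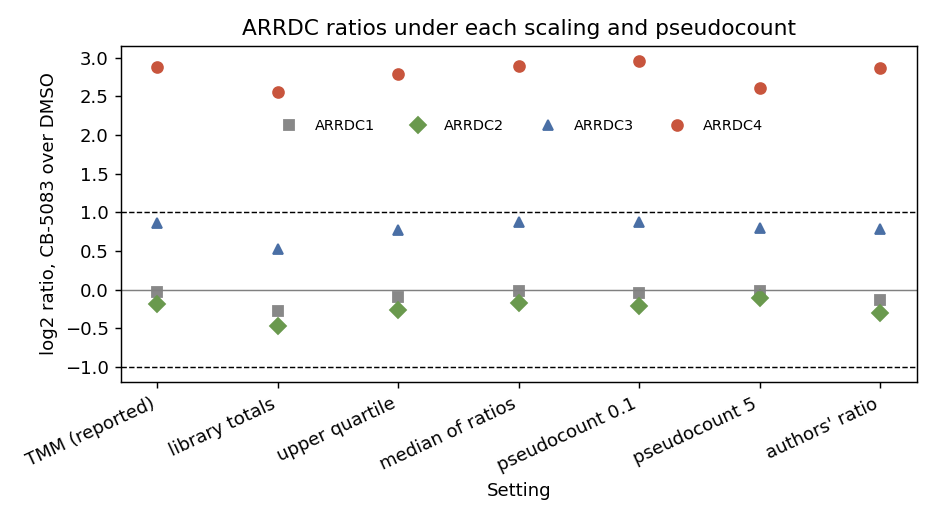
Log2 ratio of each detected ARRDC gene under the reported TMM scaling, the other scalings, the other pseudocounts and the ratio the authors deposited, with dashed lines at 2-fold. ARRDC4 lies above 2-fold in each column (lowest 2.55), ARRDC3 between 0 and 2-fold, and ARRDC1 and ARRDC2 at or below 0.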

How the data were processed

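Each treatment gave 1 mRNA library, made with a strand-keeping kit (per the labels' protocols). RSEM 1.2.0 and hg19 are named in the submitters' processing notes, and no source used here gives the aligner. Each deposited value is a signal, which the authors scaled within each library to a 75th percentile of about 1000 (999.7 and 999.9 from the values). Their deposited table also holds a log2 ratio without pseudocount. Estimated counts were recovered by dividing each library by the step of its low values (1.079 and 1.175). Of all values above 0, 55.2% and 55.9% came out whole within 0.02, so they are estimates. CPM used TMM factors (trim 30% on ratios, 5% on means) of 1.13 for DMSO and 0.888 for CB-5083.

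Of 21116 rows, 1 without a value was left out. Starts were raised by 1, since end minus start equalled the RefSeq gene length for 683 genes and was 1 short for 110. Rows listing starts over 500 kb apart were not used as neighbours. Promoter windows are RefSeq's on GRCh38.p14, and all 5 genes matched by symbol. No protein sequences were used here. Fold intervals are Clopper-Pearson and level intervals Poisson, both exact at 95%. Scripts were tested on simulated data.

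The members and lists were chosen with earlier results of these data known. Genes named are the members, for each list the highest and lowest ratio and the most expressed measured member (by the mean CPM of both libraries), the nearest measured gene on each side of a member, and the 2 genes nearest in level. Other list genes were named after their values were seen, for their role. Alternatives to scaling, pseudocount, filter, threshold and source of the ratio were run 1 at a time. Scripts ran in Python 3.11.15 with scipy 1.17.1, pandas 2.3.3 and numpy 2.4.6, and figures were drawn with matplotlib 3.10.9.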

Additional observations from a re-analysis of the deposited data

How the results depend on the processing

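Of 258 values recomputed under the alternatives, 223 stayed within a margin of the reported value. Another 31 moved further, and 4 list medians turned sign by more than the margin. The margin was counting error for a gene's ratio and 1.5 times for a count. For a list median it was the median counting error of its single genes, and no interval of a median was computed. Many of the 223 are counts of 0 that stayed at 0. With library totals alone, 22 values stayed, 16 moved and 4 turned sign. The medians that turned were MLX and partners to -0.28, glucose entry to -0.075, AMPK to -0.16 and the NEDD4 list to -0.053. The MLX median also turned sign, within the margin, with upper quartile scaling (-0.029, from 0.06). Library totals also gave log2 ratios of 2.55 for ARRDC4 and 0.52 for ARRDC3. Medians with library totals were -0.44 for the other arrestin-fold genes, -0.49 for ChREBP and MondoA targets, -0.38 for the thioredoxin system, -0.64 for cargo, 0.14 for ESCRT, 0.35 for the inflammasome, 0.36 for the glucocorticoid and 0.20 for the FOXO list. Counts with library totals were 0 higher for glucose entry, AMPK and the NEDD4 list, 1 higher and 1 lower for the thioredoxin system and 1 lower for ChREBP and MondoA targets.

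Upper quartile scaling gave 0 higher in the NEDD4 list (median 0.20), 1 lower among ChREBP and MondoA targets (median -0.24) and an inflammasome median of 0.60. Median-of-ratios scaling gave 1 higher in the inflammasome list. A pseudocount of 0.1 CPM gave 1 higher in the inflammasome list and 1 lower among ChREBP and MondoA targets. A pseudocount of 5 CPM gave 2.61 for ARRDC4, a glucocorticoid median of 0.41, 1 higher in the NEDD4 list, 0 lower in glucose entry and 0 lower among other arrestin-fold genes. A mean of at least 5 CPM gave an inflammasome median of 0.84. At 1.5-fold, 2 of the 5 genes were higher, ARRDC3 and ARRDC4, against 17.4% of the 9543 genes that reached 5 CPM. TXNIP and ARRDC1 did not reach 5 CPM and could not be called. The next shares, called higher and lower, are likewise of genes that reached 5 CPM under each setting. They were 3.86% and 10.3% of 9623 genes with library totals. With the authors' deposited ratio they were 6.67% and 7.57% of 9541 genes that had such a ratio. As reported they were 7.22% and 4.91% of 9543. No paired analysis was possible because each treatment was 1 library. At 79 and 66 counts, ARRDC1 was the least precisely measured of the detected genes. The planned comparison of protein sequences was not run.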

Other observations

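The 20 promoter windows with the repeated CACGNG found before TXNIP belong to 20 genes, of which 17 were matched in the files and 13 measured. GFPT1 alone of these 13 was called higher and none lower, so that 12 were neither. The median log2 ratio of the 13 was 0.30, against 0.04 over all measured genes, of which 5.76% were called higher. All 13 reached 5 CPM. Over all genes that did so the median was 0.09 and 7.22% were called higher, so the single call is near that share. GFPT1, the enzyme that starts the hexosamine pathway from fructose 6-phosphate, was at 134 CPM in DMSO and 655 CPM in CB-5083, a log2 ratio of 2.28. The lowest was TIGD1, at 9.92 and 5.26 CPM. RAN, a GTPase of nuclear transport, was the most expressed, at 736 and 739 CPM. This list was made after the match in the TXNIP window had been seen, and whether any factor bound these windows was not measured.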
